A study of Mus musculus with 28 samples.

Results

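The 4 calcineurin-dependent NFAT transcription factors Nfatc1, Nfatc2, Nfatc3 and Nfatc4 and the calcineurin regulators Rcan1 and Rcan2 were followed in RNA immunoprecipitated with PKR, a kinase that double-stranded RNA activates, from mouse embryonic fibroblasts. They are 6 of the 30210 features in the deposited tables. They were chosen by symbol and Ensembl identifier, as families, after results of these libraries had been seen, so the values and adjusted p-values given for them are a description and no independent evidence. The groups were, within each dataset, cells with PKR mutated in each double-stranded RNA-binding motif (RM) under 0.1 mM palmitic acid, RM cells under mock treatment, cells with wild-type PKR (WT) under 0.1 mM palmitic acid, and WT cells under mock treatment. Palmitic acid is a saturated fatty acid. All of these cells were reconstituted with PKR; the labels used here give neither the genotype of the cells before that nor whether a line is 1 clone. In datasets A and B each group had 3 libraries, which the labels call biological replicates, and in dataset C it had 1. A mark of 2hr stands in the column names of dataset B, and the labels do not explain it.

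NFATc proteins rest in the cytoplasm in a phosphorylated form. When calcium rises, calmodulin switches on the phosphatase calcineurin, which strips these phosphates and lets NFATc enter the nucleus, where it binds DNA at a GGAAA core, often beside AP-1. Rcan proteins bind calcineurin and restrain it, and 1 of the start sites of Rcan1 is itself a known NFAT target, which makes Rcan1 RNA a common readout of the pathway. The best-known work on NFATc comes from T cells, osteoclasts and muscle.

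Windows of 250 bases before the RefSeq starts (build GRCm38.p6) were searched for GGAAA on either strand. The search covered 5 of the 6 genes, all but Nfatc1, and 10 windows in all, of which 6 held it. Those of Nfatc2, the gene with the largest palmitate difference below, and of the downstream start of Rcan1, the one known to answer NFAT, are shown because they let the factor's own core motif be seen at a gene that rose and at a gene that did not pass the test. Each reads 5′ to 3′ on the strand of the gene, which is the minus strand for both, and capitals mark GGAAA or its complement TTTCC.
Nfatc2, chr2:168601658-168601907: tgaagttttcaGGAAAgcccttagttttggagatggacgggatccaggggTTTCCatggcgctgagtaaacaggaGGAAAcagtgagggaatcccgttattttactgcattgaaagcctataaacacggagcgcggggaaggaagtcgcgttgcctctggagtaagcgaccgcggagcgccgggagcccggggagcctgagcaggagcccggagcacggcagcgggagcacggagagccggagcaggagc
Nfatc2, chr2:168590366-168590615: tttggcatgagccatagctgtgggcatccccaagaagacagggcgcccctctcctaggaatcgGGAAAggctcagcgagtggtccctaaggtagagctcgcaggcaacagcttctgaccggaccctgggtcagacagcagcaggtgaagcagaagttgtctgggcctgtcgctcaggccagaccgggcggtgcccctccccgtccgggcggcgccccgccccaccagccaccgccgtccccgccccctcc
Rcan1, chr16:92400079-92400328: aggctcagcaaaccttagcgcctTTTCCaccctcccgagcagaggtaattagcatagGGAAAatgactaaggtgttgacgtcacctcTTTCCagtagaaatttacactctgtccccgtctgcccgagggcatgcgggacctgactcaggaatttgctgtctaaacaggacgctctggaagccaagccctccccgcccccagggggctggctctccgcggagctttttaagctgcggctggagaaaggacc
The first Nfatc2 window and the Rcan1 window held 3 matches each, and the second Nfatc2 window held 1. Of the windows not printed, that of Nfatc4, which did not pass for palmitate, also held 3. The window of the other Rcan1 start held 0. Of all 32851 RefSeq windows of this length, 55.6% held at least 1 match and 6.39% held at least 3. A match is a stretch of letters, and no binding was measured. Counts per gene do not say which start a transcript used.

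The libraries of dataset A held 3249858 to 8036622 counts, apart from RM palmitate replicate 2 with 254762, in which the 6 genes together had few reads: Nfatc1 had 4 counts, Nfatc2 had 1, Nfatc3 and Nfatc4 had 2 each, and both Rcan genes had 0. The libraries of dataset B held 2204502 to 7122087 counts and those of dataset C 7462653 to 11658726. In dataset B, RM palmitate replicates 2 and 3 had low TMM factors of 0.82 and 0.637. Levels are CPM, a gene's counts as a share of the TMM-scaled library, and are not compared between datasets. Fibroblast markers were present, with counts for 8 of 8 in every group. Their summed level was 8970 to 11600 CPM in RM palmitate against 10200 to 10500 CPM in RM mock of dataset A, and 7970 to 9550 CPM in WT palmitate against 10200 to 11700 CPM in WT mock. In dataset B it was 14300 to 21900 CPM in RM palmitate against 20200 to 22300 CPM in RM mock, and 20700 to 22100 CPM in WT palmitate against 15600 to 16800 CPM in WT mock, so the WT groups split in opposite directions. Markers of macrophages and lymphocytes, cells that are rich in NFATc, summed to between 0 and 1.74 CPM in dataset A and 1.09 to 5.83 CPM in dataset B, and Cd3e and Adgre1 were at 0 in all groups of both. With no input RNA or control precipitate analysed here, RNA abundance, binding to PKR and background cannot be told apart, nor can fewer cells and less RNA per cell.

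Palmitate against mock treatment was the first comparison, and it answers how much of each RNA was recovered with PKR after the fatty acid. Nfatc2 and Nfatc1 rose with palmitate, and Nfatc3, Nfatc4, Rcan1 and Rcan2 did not pass the test in any fit of this comparison as described here. Averaged over both genotypes and both datasets, Nfatc2 was 2.86-fold higher under palmitate than in mock (log2 fold change 1.51 ± 0.13 SE, adjusted p = 3.22e-09) and Nfatc1 was 1.68-fold higher (0.75 ± 0.09, adjusted p = 6.3e-07), by edgeR's quasi-likelihood test with Benjamini-Hochberg adjustment over 12683 features. That is 2 of the 6 genes, where 20.3% of all features tested were called. Both calls held in 30 of 30 alternatives each, with log2 fold changes of 1.39 to 1.7 for Nfatc2 and 0.61 to 0.79 for Nfatc1. Of the 8 fibroblast markers 1 moved with palmitate in this fit, Pdgfra, a growth factor receptor (-0.75 ± 0.11, adjusted p = 3.69e-05), and its part in these results was not tested.

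**Figure D1:**
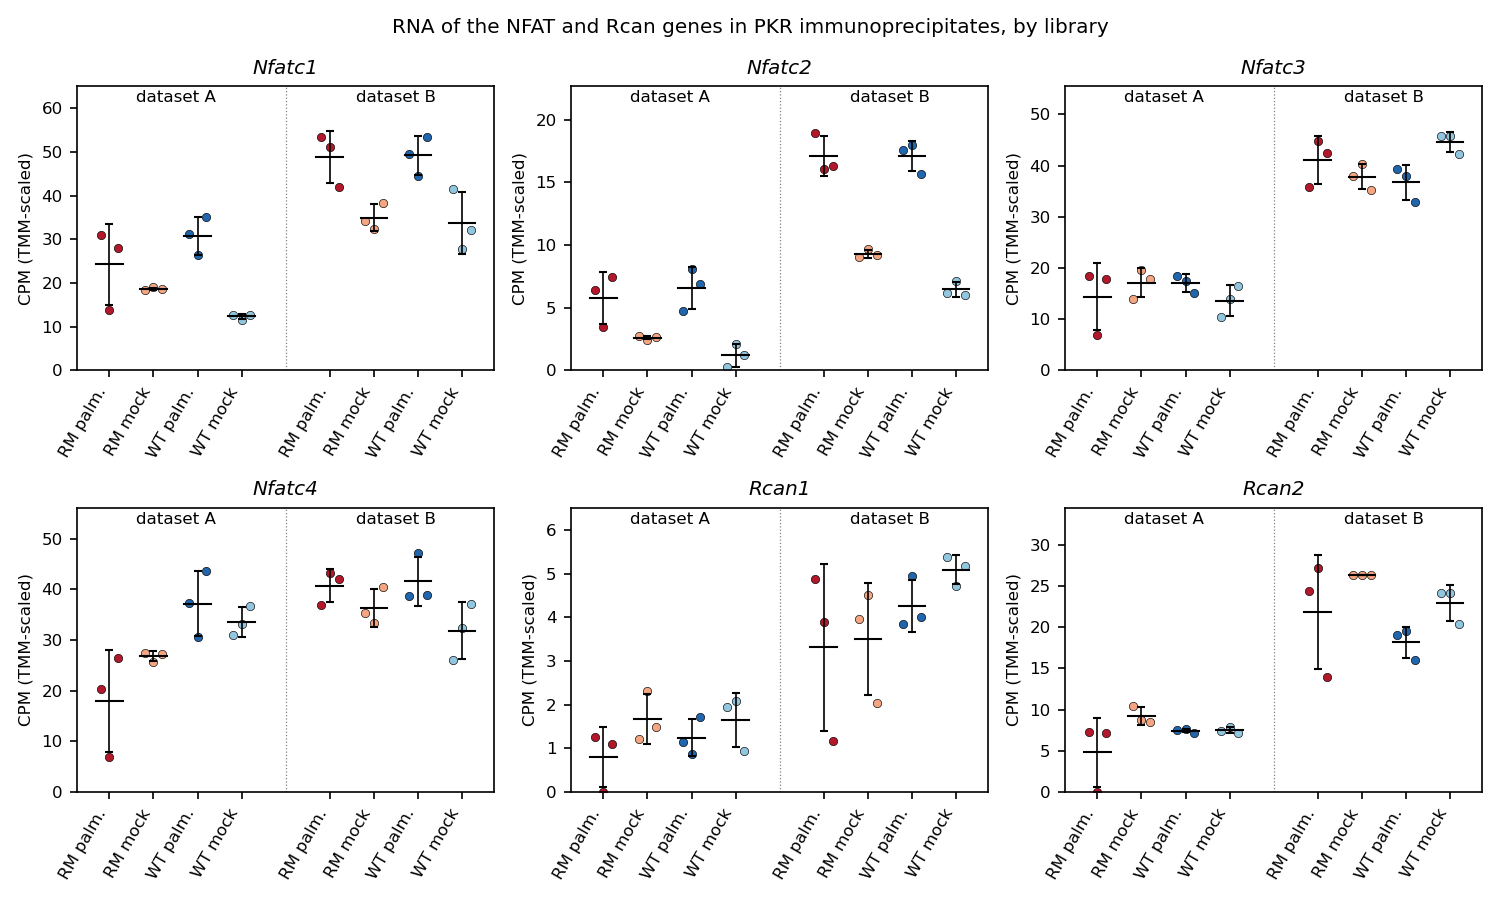
Level of each gene in CPM after TMM scaling within a dataset, in every library of datasets A and B; points are the 3 libraries of a group, the long bar is their mean and the whiskers are the SD. Nfatc2 lies higher under palmitate than in mock in both genotypes and datasets, while Rcan1 and Rcan2 overlap or lie lower.

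Nfatc2 (NFAT1, ENSMUSG00000027544), on chromosome 2 from 168301910 to 168427157 on the minus strand of mm9, is the NFATc member that is most abundant in resting T cells. In dataset A its level was 6.45, 3.45 and 7.45 CPM in RM palmitate libraries 1 to 3, against 2.73, 2.46 and 2.67 CPM in RM mock. With WT it was 4.75, 8.05 and 6.86 CPM under palmitate, against 0.276, 2.08 and 1.24 CPM in mock. All palmitate libraries lay above all mock libraries of their genotype, although the RM value of 3.45 CPM rests on 1 count and the WT mock values on 1, 9 and 4 counts. In dataset B its level was 18.9, 16.1 and 16.3 CPM in RM palmitate, against 9.04, 9.68 and 9.21 CPM in RM mock. With WT it was 17.6, 18 and 15.7 CPM under palmitate, against 6.20, 7.16 and 6.02 CPM in mock. Again the groups did not overlap in either genotype. How many of all features separate in this way was not counted, so for each gene here the lack of overlap is description only.

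In the fits by dataset and genotype, Nfatc2 was 1.85-fold higher under palmitate with RM in dataset B (log2 0.89 ± 0.17, adjusted p = 0.00712) and 2.63-fold higher with WT in dataset B (1.40 ± 0.16, adjusted p = 6.33e-05). With WT in dataset A it was 5.07-fold higher (2.34 ± 0.41, adjusted p = 0.0138). With RM in dataset A the difference was 1.37 ± 0.32 and missed the threshold (adjusted p = 0.0616), which it passed without RM palmitate replicate 2, the shallow library (1.43, adjusted p = 0.0303; 0.00129 to 0.285 over the alternatives). The WT call of dataset B held in 11 of 11 alternatives. For WT in dataset A it held in 7 of 10 and was lost without WT mock replicate 1 (adjusted p = 0.0651) or 3 (0.0781) or WT palmitate replicate 2 (0.0974), within 6.11e-06 to 0.0974 over the alternatives. For RM in dataset B it held in 10 of 12 and was lost without RM palmitate replicates 2 and 3 together (1.03, adjusted p = 0.067) and with total counts in place of TMM (0.53, adjusted p = 0.0904), within 0.00418 to 0.0904 over the alternatives.

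Nfatc1 (NFAT2, ENSMUSG00000033016), on chromosome 18 from 80802944 to 80909810 on the minus strand of mm9, is the member that osteoclasts and heart valves require and that can raise its own transcription. In dataset A its level was 31.0, 13.8 and 28.0 CPM in RM palmitate, against 18.4, 19.0 and 18.5 CPM in RM mock. These groups overlapped through palmitate replicate 2, whose 13.8 CPM rests on 4 counts. With WT it was 31.1, 26.3 and 35.0 CPM under palmitate, against 12.7, 11.6 and 12.8 CPM in mock, with no overlap. In dataset B its level was 53.3, 51.0 and 42.0 CPM in RM palmitate, against 34.1, 32.3 and 38.4 CPM in RM mock. With WT it was 49.6, 44.5 and 53.5 CPM under palmitate, against 41.6, 27.7 and 32.1 CPM in mock. In both genotypes of dataset B the palmitate libraries lay above the mock libraries, by a narrow margin in each.

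With WT, Nfatc1 rose 2.49-fold under palmitate in dataset A (log2 1.32 ± 0.20, adjusted p = 0.00598) and, in dataset B, 1.46-fold (0.54 ± 0.15, adjusted p = 0.0218). With WT in dataset A it held in 9 of 11 alternatives and was lost without WT mock replicate 2 (adjusted p = 0.0586) and with total counts (0.187), within 4.24e-05 to 0.187 over the alternatives. With WT in dataset B it held in 7 of 11 and was lost without WT mock replicate 2 (0.0969), WT palmitate replicate 1 (0.053) or WT palmitate replicate 3 (0.102) and with total counts (0.158), within 0.00372 to 0.158 over the alternatives. With RM the differences were 0.58 ± 0.20 in dataset A (adjusted p = 0.201) and 0.49 ± 0.16 (adjusted p = 0.0603) in dataset B, neither past the threshold. Without RM palmitate replicate 2 of dataset A the first of these passed (0.69, adjusted p = 0.0399; 0.0399 to 0.639 over the alternatives).

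By comparison, the 6 genes gave 2 calls with WT in dataset A, where 0.335% of 11328 features were called, and 2 with WT in dataset B, where 15.5% of 12466 were. With RM they gave 0 calls by edgeR in dataset A, where 0.477% of features were called; 2 of the 6 had an unadjusted p under 0.05 and DESeq2 called 0. With RM in dataset B they gave 1, where 7.53% were called. The calls were Nfatc1 and Nfatc2 alone, and all were higher under palmitate. In the authors' deposited tables, a score of 13.01 stands for a false discovery rate of 0.05. The authors' deposited table for dataset A gave Nfatc2 a log2 ratio of 2.15 with a score of 39.9 for WT and 1.40 with a score of 16.3 for RM, and Nfatc1 2.42 with a score of 38.8 for WT. The authors' deposited table for dataset B gave Nfatc2 0.70 with a score of 53.4 and Nfatc1 0.42 with a score of 18.2, both for WT. The other scores of the 6 genes in the authors' deposited tables stayed below 13.01, the highest of them 8.15 for Nfatc4 with WT in dataset B. Nfatc2 with RM is where the call differed: it had a score of 6.27 and a log2 ratio of 0.61 in the authors' deposited table for dataset B, where edgeR called it, and passed in theirs for dataset A, where edgeR did not.

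**Figure D2:**
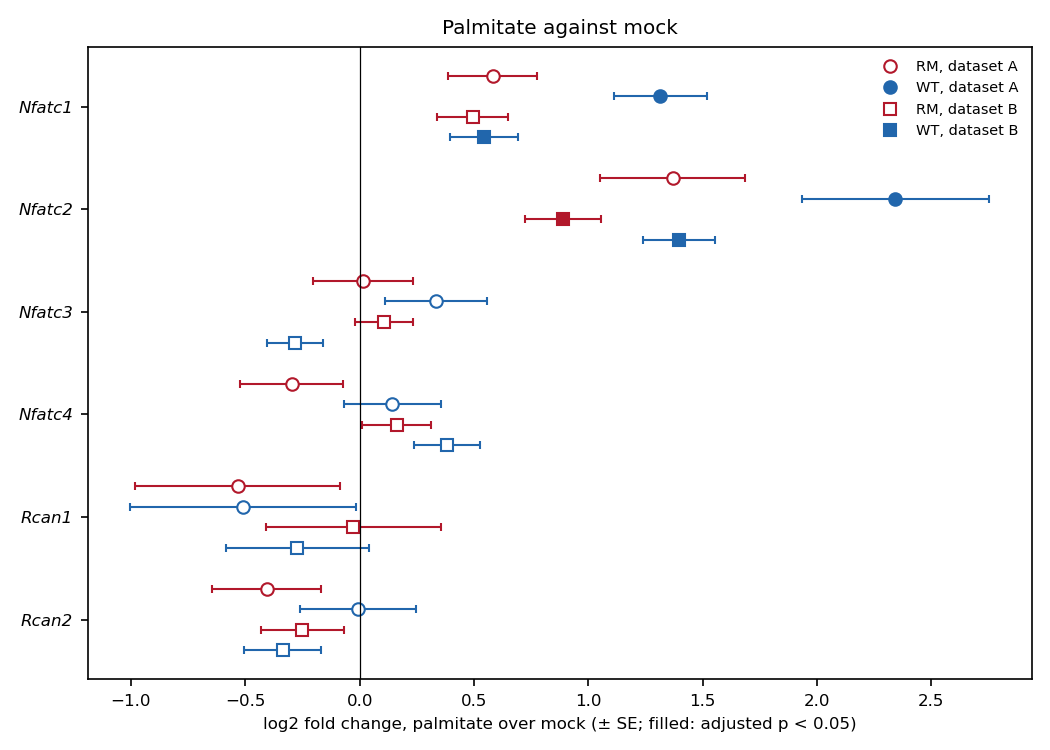
Log2 fold change of palmitate over mock for each gene, by genotype (colour) and dataset (circle for A, square for B), with SE bars; filled symbols have an adjusted p under 0.05. The filled symbols belong to Nfatc1 and Nfatc2, and the other 4 genes lie between -0.53 and 0.38.

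Nfatc3 (NFAT4, ENSMUSG00000031902), on chromosome 8 from 108582740 to 108654437 on the plus strand of mm9, is a widely expressed member. It had 18.4, 6.90 and 17.9 CPM in RM palmitate against 14.0, 19.6 and 17.9 CPM in RM mock of dataset A, and 18.5, 17.4 and 15.1 CPM in WT palmitate against 10.5, 13.9 and 16.5 CPM in WT mock. In dataset B it had 35.8, 44.9 and 42.5 CPM in RM palmitate against 37.9, 40.2 and 35.3 CPM in RM mock, and 39.4, 38 and 32.9 CPM in WT palmitate against 45.7, 45.8 and 42.3 CPM in WT mock. The groups overlapped except for WT in dataset B, where all palmitate libraries lay lower; the log2 fold change there was -0.28 ± 0.12 (adjusted p = 0.128). Over both datasets it was 0.06 ± 0.09 (adjusted p = 0.693). At its end the gene overlaps Esrp2 on the opposite strand, which had a mean of 3.42 counts per library, and the use of strand in counting for datasets A and B is not given in the sources used here.

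Nfatc4 (NFAT3, ENSMUSG00000023411), on chromosome 14 from 56443632 to 56452780 on the plus strand of mm9, is known from heart and nervous system. It had 20.3, 6.90 and 26.5 CPM in RM palmitate against 27.5, 25.6 and 27.3 CPM in RM mock of dataset A, and 37.3, 30.7 and 43.6 CPM in WT palmitate against 30.9, 33.1 and 36.7 CPM in WT mock. In dataset B it had 37.0, 43.2 and 42.0 CPM in RM palmitate against 35.3, 33.3 and 40.4 CPM in RM mock, and 38.7, 47.1 and 38.9 CPM in WT palmitate against 26.0, 32.4 and 37.1 CPM in WT mock. Only WT in dataset B was free of overlap, with higher values under palmitate and a log2 fold change of 0.38 ± 0.14 that missed the threshold (adjusted p = 0.0809) and passed it without WT mock replicate 3 (0.52, adjusted p = 0.0268; 0.0268 to 0.288 over the alternatives). Over both datasets the fold change was 0.11 ± 0.09 (adjusted p = 0.416).

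Rcan1 (DSCR1, ENSMUSG00000022951), on chromosome 16 from 92392198 to 92466391 on the minus strand of mm9, carried the fewest reads per kilobase together with Nfatc2. In dataset A it had 9, 0 and 8 counts in RM palmitate against 8, 16 and 10 in RM mock, and 7, 4 and 5 counts in WT palmitate against 7, 9 and 3 in WT mock. In dataset B its level was 4.88, 3.88 and 1.17 CPM in RM palmitate against 3.96, 4.50 and 2.05 CPM in RM mock, and 3.84, 4.95 and 4.01 CPM in WT palmitate against 5.37, 4.72 and 5.18 CPM in WT mock. All of these groups overlapped. The log2 fold change was -0.32 ± 0.21 over both datasets (adjusted p = 0.281) and negative in each of the 4 single fits, from -0.53 ± 0.45 with RM in dataset A (adjusted p = 0.63) to -0.03 ± 0.38 with RM in dataset B (adjusted p = 0.981), where the sign changed under 4 of 12 alternatives. A palmitate difference in Rcan1 was not detectable at these counts.

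Rcan2 (ENSMUSG00000039601), on chromosome 17 from 43938800 to 44176465 on the plus strand of mm9, is the family member whose RNA answers thyroid hormone in human fibroblasts. In dataset A it had 7.29, 0 and 7.18 CPM in RM palmitate against 10.5, 8.69 and 8.45 CPM in RM mock, and 7.53, 7.62 and 7.20 CPM in WT palmitate against 7.46, 7.87 and 7.16 CPM in WT mock. In dataset B it had 24.4, 27.2 and 14.0 CPM in RM palmitate against 26.4, 26.3 and 26.3 CPM in RM mock, and 19.0, 19.5 and 16 CPM in WT palmitate against 24.1, 24.2 and 20.4 CPM in WT mock. RM in dataset A and WT in dataset B showed no overlap, with the lower values under palmitate, and the other groups overlapped. The 0 CPM of RM palmitate in dataset A is from replicate 2, the shallow library, with 0 counts. None of these differences passed the test, with log2 fold changes of -0.41 ± 0.24 for RM in dataset A (adjusted p = 0.473), -0.34 ± 0.17 for WT in dataset B (adjusted p = 0.187) and -0.24 ± 0.11 over both datasets (adjusted p = 0.117).

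Per kilobase of counted length, which allows the genes to be set beside each other, the order was led by Nfatc4 in all 8 groups. In dataset B, Nfatc4 averaged 10.1 ± 0.82, 9.04 ± 0.91, 10.3 ± 1.20 and 7.93 ± 1.38 CPM per kb in RM palmitate, RM mock, WT palmitate and WT mock (SD, n = 3 each). Nfatc2 averaged 2.04 ± 0.19, 1.11 ± 0.04, 2.04 ± 0.15 and 0.772 ± 0.073 CPM per kb in the same 4 groups. Under palmitate it stood above Rcan1, which averaged 1.32 ± 0.77 CPM per kb in RM palmitate and 1.7 ± 0.24 CPM per kb in WT palmitate, by less than the summed SD of both genes. In mock it stood below Rcan1, which averaged 1.40 ± 0.52 CPM per kb in RM mock and 2.03 ± 0.13 CPM per kb in WT mock; in WT mock the gap was larger than the spread. Nfatc1, Nfatc3 and Rcan2 lay between, at 4.55 to 7.20 CPM per kb as group means of dataset B, and their order changed from group to group. In WT mock the gap between Nfatc4 and Nfatc3, at 7.20 ± 0.32 CPM per kb, was within the spread.

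RM against WT was the second comparison, which sets RNA recovered with PKR lacking intact RNA-binding motifs beside RNA recovered with the intact protein. Genotype and reconstituted cells go together here, so an effect of the motifs and another difference between the cells cannot be told apart. The p-values measure the spread between libraries and not between independently made lines. Over both datasets and treatments Nfatc2 was 1.35-fold higher with RM than with WT (log2 fold change 0.43 ± 0.14, adjusted p = 0.0214), 1 of the 6 genes, where 25.5% of features tested were called. This held in 28 of 30 alternatives and was lost without WT mock replicate 1 of dataset A (0.32, adjusted p = 0.0671), the library in which Nfatc2 had 1 count, and with total counts (0.46, adjusted p = 0.0548), within 0.00522 to 0.0671 over the alternatives. Nfatc4 was lower with RM by -0.22 ± 0.09 without passing (adjusted p = 0.0698). It passed without RM palmitate replicate 3 of dataset A (-0.29, adjusted p = 0.029), WT mock replicate 1 of dataset B (-0.26, adjusted p = 0.0333) or WT palmitate replicate 2 of dataset A (-0.26, adjusted p = 0.0487), within 0.029 to 0.334 over the alternatives. Nfatc1 (0.13 ± 0.09), Nfatc3 (0.07 ± 0.09), Rcan1 (-0.18 ± 0.21) and Rcan2 (0.17 ± 0.11) had adjusted p-values of 0.246 to 0.591.

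Marker genes moved with genotype in the same fit, and their part in these results was not tested. Of the 8 fibroblast markers Thy1 (-0.62 ± 0.09, adjusted p = 1.01e-05) and Vim (-0.44 ± 0.15, adjusted p = 0.0341) were lower with RM, and Fn1 (0.49 ± 0.17, adjusted p = 0.029) and Pdgfrb (0.31 ± 0.10, adjusted p = 0.0292) were higher. Of the endothelium, skeletal muscle and osteoclast lists 1 gene each could be tested. Tek, the angiopoietin receptor, was higher with RM (1.15 ± 0.20, adjusted p = 0.000175), and Acta1, skeletal actin (-0.70 ± 0.18, adjusted p = 0.00877), and Ctsk, a protease of osteoclasts (-0.36 ± 0.12, adjusted p = 0.0298), were lower. The 4 endothelium markers summed to 2.33 to 8.44 CPM in the RM groups against 0.343 to 5.10 CPM in the WT groups over both datasets, and the muscle factors Myog and Myod1 were at 0 in all groups.

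Taken by treatment, the mock levels of Nfatc2 were 2.46 to 2.73 CPM in RM mock against 0.276 to 2.08 CPM in WT mock of dataset A, and 9.04 to 9.68 CPM in RM mock against 6.02 to 7.16 CPM in WT mock of dataset B, with no overlap in either. The log2 fold change was 1.06 ± 0.45 in dataset A (adjusted p = 0.211). It was 0.53 ± 0.16 in dataset B (adjusted p = 0.0393). The call in dataset B was the only one of the 6 genes there, where 14.1% of features were called, and it held in 2 of 11 alternatives; it ended under DESeq2 (adjusted p = 0.113) and without any 1 of the 6 mock libraries, with adjusted p of 0.0568 to 0.118, all within 0.0353 to 0.191 over the alternatives. In mock of dataset A edgeR called 0 of the 6, where 3.74% of features were called; 2 had an unadjusted p under 0.05, and DESeq2 called 0. Nfatc1, at 18.4 to 19.0 CPM in RM mock against 11.6 to 12.8 CPM in WT mock, had a log2 fold change of 0.60 ± 0.20 there (adjusted p = 0.109), beside 0.04 ± 0.15 in dataset B (adjusted p = 0.89).

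Under palmitate edgeR called 0 of the 6 between genotypes in dataset A, where 3.43% of features were called, with 1 at an unadjusted p under 0.05 and 0 called by DESeq2. In dataset B it also called 0, where 7.81% of features were called, with 0 at an unadjusted p under 0.05 and 0 called by DESeq2. Nfatc2 differed by 0.08 ± 0.30 in dataset A and 0.02 ± 0.16 in dataset B, and Nfatc1 by -0.14 ± 0.20 and -0.01 ± 0.15, so that RM and WT libraries overlapped for both genes. Nfatc4 had 6.90 to 26.5 CPM in RM palmitate against 30.7 to 43.6 CPM in WT palmitate of dataset A, without overlap, and a log2 fold change of -0.76 ± 0.23 (adjusted p = 0.0692). It passed without RM palmitate replicate 2, the shallow library (-0.65, adjusted p = 0.0388; 0.0388 to 0.476 over the alternatives). In dataset B the same difference was -0.03 ± 0.15 (adjusted p = 0.928). The comparisons of genotype and of palmitate share libraries, so a low WT mock value enters both the palmitate effect with WT and the genotype difference in mock.

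**Figure D3:**
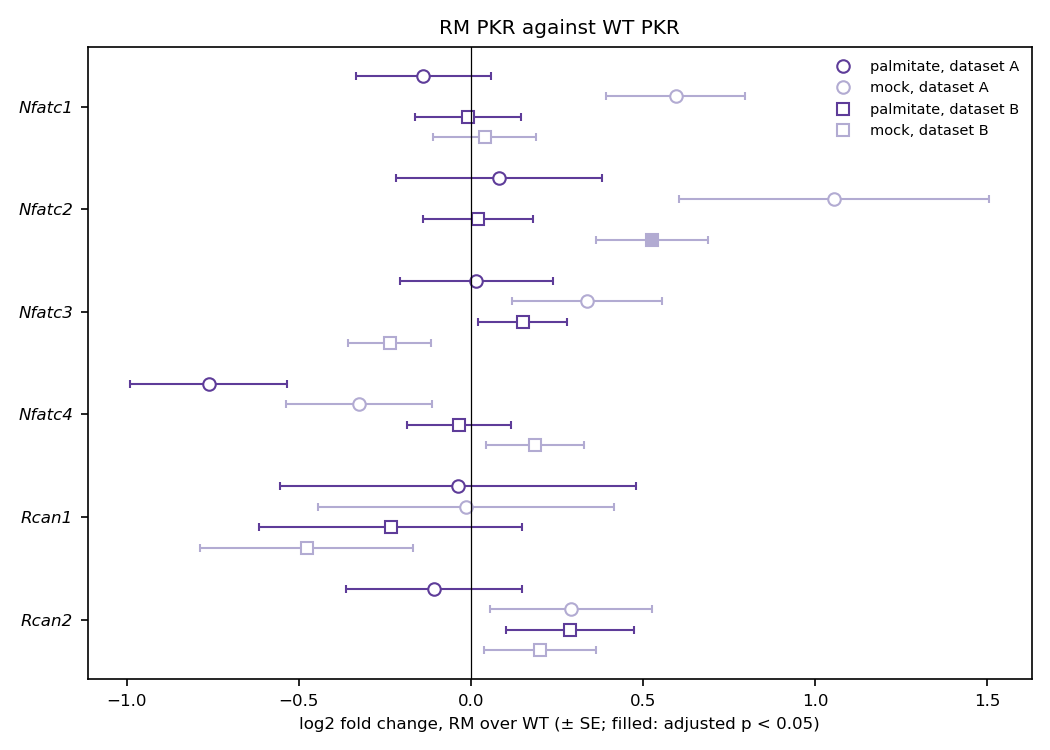
Log2 fold change of RM over WT for each gene, under palmitate (dark) and in mock (pale), in dataset A (circle) and dataset B (square), with SE bars; filled symbols have an adjusted p under 0.05. The 1 filled symbol is Nfatc2 in mock of dataset B at 0.53, and the lowest value is Nfatc4 under palmitate in dataset A at -0.76.

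Whether palmitate acted differently with RM than with WT was asked by the interaction. No gene of the family passed: edgeR called 0 of the 6 in dataset A, where 0% of features were called and 469 had an unadjusted p under 0.05, and DESeq2 called 0 features. In dataset B edgeR again called 0 of the 6, where 0% of features were called and 2011 had an unadjusted p under 0.05, while DESeq2 called 375 features and 0 of the 6 genes. The genes with an unadjusted p under 0.05 in edgeR were Nfatc1 in dataset A (-0.73 ± 0.28, adjusted p = 0.981), and Nfatc2 (-0.51 ± 0.23, adjusted p = 0.282) and Nfatc3 (0.39 ± 0.18, adjusted p = 0.29) in dataset B. For Nfatc2 the interaction was -0.97 ± 0.55 in dataset A (adjusted p = 0.981), so that the palmitate difference with RM was the smaller in both datasets, without the difference between genotypes passing the test in either. Between datasets, the palmitate effect in B minus that in A was -0.45 ± 0.17 for Nfatc1 (adjusted p = 0.146) and -0.74 ± 0.27 for Nfatc2 (adjusted p = 0.136). Here edgeR called 0 of the 6, where 2.72% of features were called, with 2 at an unadjusted p under 0.05 and 0 called by DESeq2.

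The rest of the pathway was taken from lists of 63 other genes. Upstream, calcium release and entry genes gave 0 calls for palmitate over both datasets among 10 tested of 10, with a median log2 fold change of -0.03, where the median of all features was -0.01. The 3 calmodulin genes (median -0.07) and the 4 calcineurin subunit genes tested of 5 (median -0.13) likewise gave 0 calls. Among 6 tested of 7 inhibitors, scaffolds and immunophilins 1 was called, Akap1, a mitochondrial anchor of signalling enzymes (0.50 ± 0.07, adjusted p = 1.8e-05). The 11 kinases that rephosphorylate or oppose NFAT gave 0 calls (median 0.02). Of 4 transport and scaffold genes tested of 6, Xpo1, the nuclear exporter, fell by 0.32 on the log2 scale (adjusted p = 0.0207). Of the other family members Nfat5, which calcineurin does not control, did not pass over both datasets (0.05 ± 0.11, adjusted p = 0.78), and Rcan3 fell by 0.43 (adjusted p = 0.00794).

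The single fits of dataset B held further palmitate calls in these lists, and those of dataset A held none in them. In dataset B 15.5% of all features tested were called with WT and 7.53% with RM, so such calls are common. With WT in dataset B, Nfat5 (0.51 ± 0.10, adjusted p = 0.00411), Akap1 (0.88 ± 0.13, adjusted p = 0.000499) and Cabin1, a calcineurin inhibitor (0.47 ± 0.11, adjusted p = 0.00873), rose with palmitate. In the same fit Calm2 (-0.50 ± 0.13, adjusted p = 0.0149), the immunophilin Ppia (-0.44 ± 0.12, adjusted p = 0.0237) and Xpo1 (-0.46 ± 0.14, adjusted p = 0.0388) fell. With RM in dataset B the kinases Dyrk2 (1.06 ± 0.22, adjusted p = 0.0149) and Csnk1e (0.51 ± 0.14, adjusted p = 0.0421) rose. By edgeR no interaction of these genes passed the test.

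Downstream, 6 of 12 listed NFAT target genes could be tested, and 5 of them rose with palmitate over both datasets, where 20.3% of all features were called and 1380 of 12683 were higher. These were Nr4a1, an orphan nuclear receptor of the immediate early class (2.33 ± 0.15, adjusted p = 7.84e-12), Ptgs2, the inducible cyclooxygenase (1.38 ± 0.16, adjusted p = 8.63e-07), Egr3 (1.27 ± 0.17, adjusted p = 7.08e-06), Vegfa, an angiogenic growth factor (0.91 ± 0.12, adjusted p = 6.15e-06), and Egr2, like Egr3 a zinc finger factor (1.30 ± 0.23, adjusted p = 0.000191). Myc, at -0.19 ± 0.08, did not pass (adjusted p = 0.0953), and Tnf, Il2, Il6, Csf2, Fasl and Cd40lg had too few counts to be tested. The list's median among those tested was 1.29. All 5 are also known to respond to other signals than NFAT. Of the AP-1 genes, 3 of 7 tested rose: Fosl2 (0.67 ± 0.08, adjusted p = 1.77e-06), Junb (0.74 ± 0.12, adjusted p = 9.83e-05) and Fosl1 (0.82 ± 0.14, adjusted p = 0.000189); Fos and Jun did not pass. By single fit, dataset A called 1 target gene with RM, Nr4a1, and 0 with WT, where 0.477% and 0.335% of features were called. It called 0 AP-1 genes. Dataset B called 4 target genes with RM and 5 with WT, and 3 AP-1 genes with each, where 7.53% and 15.5% of features were called. Nr4a1 was the listed gene whose palmitate effect differed between datasets, higher in B than in A by 1.8 ± 0.31 (adjusted p = 0.00456).

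**Figure D4:**
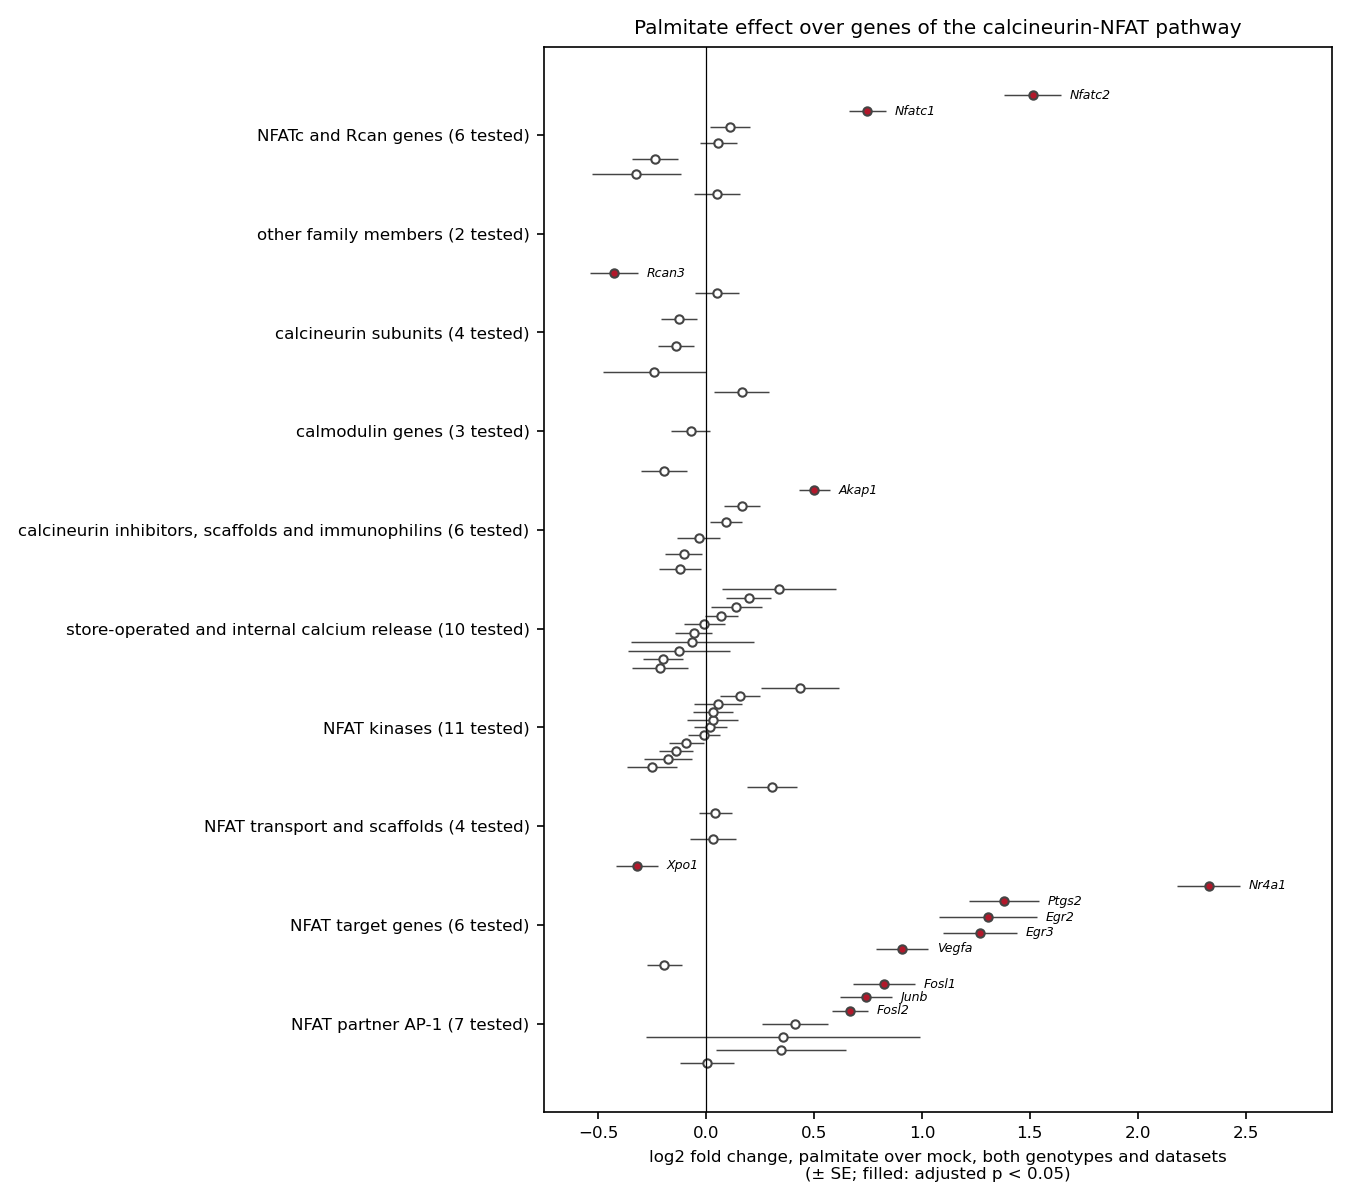
Log2 fold change of palmitate over mock, averaged over both genotypes and datasets, for the 6 NFATc and Rcan genes and the genes of each pathway list that could be tested, with SE bars; filled points have an adjusted p under 0.05 and are named. The highest values are those of Nr4a1 at 2.33 and Nfatc2 at 1.51, and upstream lists lie around 0.

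For RM against WT over both datasets, 25.5% of features were called and 1664 of 12683 were higher with RM. Of the 6 tested target genes 5 were higher, among them Egr2 (1.10 ± 0.23, adjusted p = 0.000859), Ptgs2 (0.89 ± 0.16, adjusted p = 0.000271) and Vegfa (0.73 ± 0.12, adjusted p = 7.74e-05). Of the AP-1 genes 3 of 7 were higher, namely Fos (1.38 ± 0.30, adjusted p = 0.00157), Fosl1 (0.63 ± 0.14, adjusted p = 0.00175) and Fosl2 (0.50 ± 0.08, adjusted p = 6.95e-05). By treatment, the fits of dataset A called 0 target genes and 0 AP-1 genes. Those of dataset B called 2 target genes and 1 AP-1 gene higher under palmitate, and 3 and 3 in mock. Fos was called only in mock of dataset B (3.2 ± 0.71, adjusted p = 0.00745). Of the kinases 5 of 11 were higher with RM, among them Mapk8, which encodes JNK1 (0.37 ± 0.11, adjusted p = 0.0156), and 0 were lower. The 4 single fits by treatment and dataset called at most 1 kinase each, Csnk1e under palmitate in dataset B (0.48 ± 0.14, adjusted p = 0.0491). Ppp3r1, the calcineurin regulatory subunit, was lower with RM (-0.29 ± 0.10, adjusted p = 0.0369), as was Calm2, a calmodulin gene (-0.26 ± 0.09, adjusted p = 0.035), and Stim1, the calcium sensor of the endoplasmic reticulum (-0.40 ± 0.13, adjusted p = 0.025). Itpr2, a calcium release channel of the same list, was higher with RM (0.30 ± 0.09, adjusted p = 0.019), which makes 1 higher and 1 lower of 10, and Akap1 was higher too (0.24 ± 0.07, adjusted p = 0.0155). The medians were 0.68 for the target genes, 0.50 for AP-1 and 0.21 for the kinases, where the median of all features was 0.01.

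Across the 24 libraries of datasets A and B, with log2 CPM centred within each dataset, Nfatc1 and Nfatc2 ran together (Pearson r = 0.80), while Nfatc2 had r between -0.20 and 0.26 with the other 4. Rcan2 had r as high with Nfatc4 (0.81), Rcan1 (0.81) and Nfatc3 (0.77). Without RM palmitate replicate 2 of dataset A, the shallow library, these were -0.30, 0.35 and 0.09 over 23 libraries, and Nfatc1 with Nfatc2 was 0.84. These points share 8 groups, so palmitate and genotype differences enter each r. How much of it they make up was not tested. Of 11372 features with enough counts, Nfatc1 was most like Peak1 (r = 0.95), Atxn2 (0.90) and Asap1 (0.87). Nfatc2 was most like Samd4 (0.89), Wdr43 (0.88) and Mical2 (0.87), and for both genes r stayed at 0.87 or above with the 2 farthest libraries left out. For each of the other 4 genes, RM palmitate replicate 2 of dataset A, the shallow library, was 1 of the 2 farthest libraries. It was not left out alone for these features. The nearest features were Zfp51, Dpagt1 and Acvr1 for Nfatc3, Pdcd7, Phrf1 and Vps9d1 for Nfatc4, Chchd6, Snapc2 and Bace2 for Rcan1, and Eif2b1, Ect2 and Pml for Rcan2. Their r was 0.88 to 0.98, and 0.49 to 0.82 without the 2 farthest libraries.

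Dataset C had 1 library per group and its differences have no replicate check; the palmitate libraries are those its headers call treat. Its counts are given by strand, and reads of the 6 genes lay on the strand of the gene, with at most 1 count on the other. Nfatc1 had 83.3 CPM in RM palmitate against 27.2 CPM in RM mock, a ratio of 3.06 (95% interval 2.67 to 3.51), and 6.33 CPM in WT palmitate against 3.35 CPM in WT mock, a ratio of 1.89 (1.15 to 3.19). Nfatc2 had 16.4 CPM in RM palmitate against 5.34 CPM in RM mock, a ratio of 3.07 (2.26 to 4.23), and 1.94 CPM in WT palmitate against 0.402 CPM in WT mock, where 15 and 3 counts gave a ratio of 4.82 (1.36 to 26.0). The median ratio of all features that averaged 10 counts or more was 1.13 with RM and 1.22 with WT, so both genes lay above it in both genotypes, although the interval of Nfatc1 with WT takes in that median. The intervals are exact and cover counting error only.

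The other 4 genes had palmitate ratios in dataset C of 1.02 (Rcan2) to 1.64 (Rcan1) with RM and of 1.16 (Rcan1) to 1.60 (Nfatc4) with WT. With RM the interval of Nfatc3, 1.45 (1.24 to 1.7), lay wholly above the median of all features, and that of Nfatc4, 1.28 (1.13 to 1.46), began at it. Rcan1 had 66 and 35 counts in RM palmitate and RM mock, and 6 and 5 counts in WT palmitate and WT mock. Its ratio of 1.64 with RM had an interval of 1.07 to 2.54, which takes in the median of all features. All 6 genes were higher in the RM libraries than in the WT libraries, by ratios of 4.50 to 13.2 under palmitate and 5.17 to 13.3 in mock. The median feature had ratios of 5.20 and 5.58, which means that the features as a whole were shifted the same way.

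**Figure D5:**
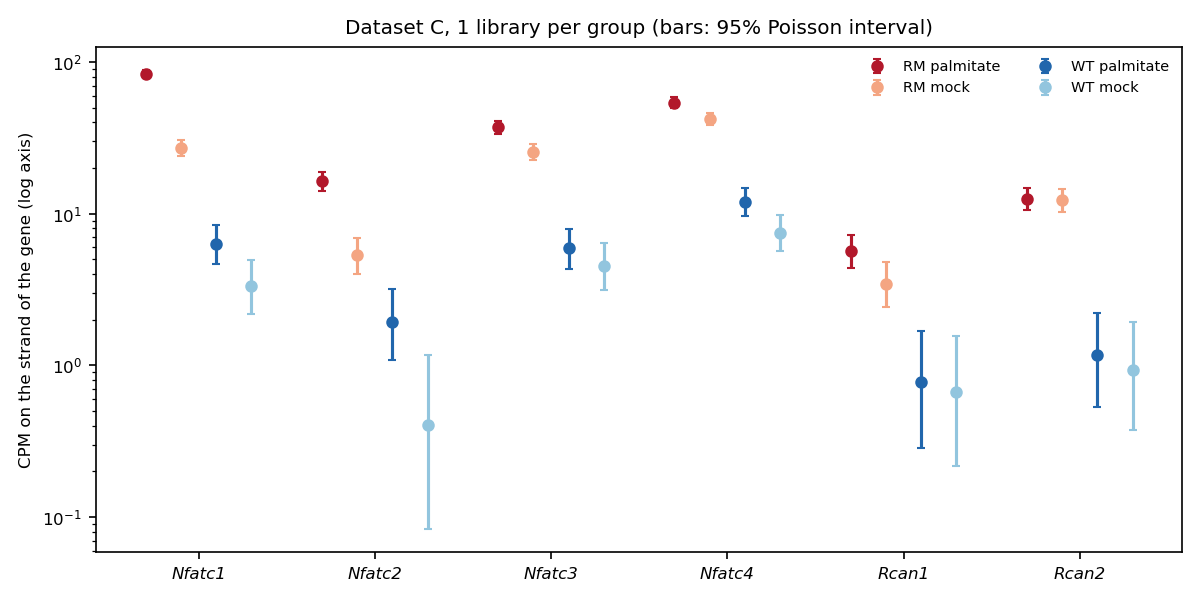
CPM of each gene on its own strand in the 4 libraries of dataset C, 1 per group, on a log axis, with 95% exact Poisson intervals of the count. All 6 genes have higher CPM under palmitate than in mock in both genotypes, some with overlapping intervals, and the largest ratios are those of Nfatc1 and Nfatc2. All 6 genes are higher in the RM libraries.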

How the data were processed

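RNA was taken from PKR immunoprecipitates with Trizol and, once fragmented, entered a small RNA library kit, per the labels' protocols. The submitters' processing notes name CASAVA 1.7.0 and 1.8.2, Novoalign and the mouse build mm9. Which version of Novoalign was run, how features were counted, with or without strand in datasets A and B, and which test the authors used is not given in the sources used here. Whole-number counts fill the deposited tables, 1 value per feature and library, which the authors left unscaled, and dataset C gives them per strand. The authors' deposited tables also hold log2 ratios and a score, read here as a negative log10 of the false discovery rate times 10, which were used only where named. Of the per-sample columns, 32 with counts were used and 52 were not. No feature lacked a name.

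Counts were tested with edgeR 4.0.16 (limma 3.58.1, R 4.3.3) by the quasi-likelihood test with TMM scaling and filterByExpr, 2-sided, with Benjamini-Hochberg adjustment over all features tested and a threshold of 0.05. All 12 libraries of a dataset entered its fit, and all 24 entered the fits over both datasets, with 1 mean for each of the 8 groups. All 6 genes passed the filter in each fit. The fits were tested on simulated counts. The p-values measure the spread between libraries that the labels call biological replicates. Libraries of a group differed by more than sampling noise (lowest chi-square per degree of freedom 4.85). Biological coefficients of variation were 0.22 (A), 0.191 (B) and 0.203 (both).

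The genes and the pathway lists were chosen with earlier results of these data known. Up to 4 genes past the threshold, by smallest p, could be named per list and comparison, with Egr2 for palmitate added after its values were seen, and for likeness the 3 features with the highest Pearson r among those with a mean of at least 10 counts, with a prior count of 2 in log2 CPM. Intervals of dataset C are exact Poisson or binomial ones at 95% and cover counting error only. Promoter windows are those of RefSeq for GRCm38.p6 and were matched by symbol; gene coordinates are 1-based and on mm9, as in the files. The alternatives were RLE size factors, total counts, no filter, DESeq2 1.42.0, a replicate block, leaving out each library in turn, and leaving out RM palmitate libraries 2 and 3 of dataset B. The replicate numbers were not taken to pair libraries of different groups.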

Additional observations from a re-analysis of the deposited data

How the results depend on the processing

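Palmitate effects of Nfatc1 and Nfatc2 never changed sign, neither by genotype and dataset nor over both datasets, under any alternative run. Sign changes occurred 72 times, 28 of them without leaving out 1 library, and 0 of them at an adjusted p under 0.05. Total counts in place of TMM moved the median of all features by -0.37 for palmitate with RM in dataset B and by 0.40 for RM against WT under palmitate in dataset A, so changes are relative to those shifts. The replicate numbers shared by groups were not taken to pair libraries. Same-numbered libraries deviated together with r of -0.44 to 0.52 in dataset A and -0.23 to 0.38 in dataset B. Their r was over 0.1 in 5 of 18 and 6 of 18 cases. For differently numbered libraries it was over 0.1 in 7 of 36 cases in each dataset. With shares this close, the check cannot decide whether some libraries were paired. Leaving the shallow library out of the correlations between the 6 genes was chosen after seeing the data. Depth limits Rcan1, Nfatc2 in WT mock of dataset A, and all 6 genes in RM palmitate replicate 2 of dataset A. Where a cause of a change is not given by the construction of the alternative, it was not tested. DESeq2 gave Nfatc2 no adjusted p for palmitate with WT in dataset A.

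Of the 6 genes, the number called changed as follows. For palmitate with RM in dataset A it was 1 with no filter and 0 to 2 with a library left out, against 0. For palmitate with RM in dataset B it was 2 with the replicate block, 0 with total counts and 0 without RM palmitate libraries 2 and 3, against 1. For palmitate with WT in dataset A it was 1 under DESeq2, 1 with total counts and 1 to 2 with a library left out, against 2. For palmitate with WT in dataset B it was 1 with total counts and 1 to 3 with a library left out, against 2. For RM against WT it was 1 with the replicate block and 0 to 1 with a library left out under palmitate in dataset A, against 0. In mock of dataset B it was 0 under DESeq2, with no filter, with total counts and with any library left out, against 1. Over both datasets it was 2 with the replicate block, 0 with total counts and 0 to 2 with a library left out, against 1. The genes that the replicate block added were Nfatc1 (0.49, adjusted p = 0.0476) for palmitate with RM in dataset B, and Nfatc4 for RM against WT under palmitate in dataset A (-0.83, adjusted p = 0.049) and over both datasets (-0.24, adjusted p = 0.0446).

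The number of features called was the following under the alternatives that moved it by over 1.5 times. With no filter it was 349 for palmitate with RM in dataset A, against 54, and 197 with WT, against 38. It was 840 for RM against WT under palmitate in dataset A, against 388, and 723 in mock, against 424. The interactions then had 88 in dataset A and 125 in dataset B, against 0 each. With total counts it was 12 for palmitate with RM and 6 with WT in dataset A, and 2431 with RM, against 939, and 1084 with WT, against 1938, in dataset B. RM against WT then had 240 in mock of dataset A, 2109 under palmitate of dataset B, against 974, 978 in mock of dataset B, against 1760, and 2060 over both datasets, against 3238. The interaction in dataset B then had 119, and 120 differed between datasets, against 345. DESeq2 called 375 and the replicate block 46 for the interaction in dataset B. Without RM palmitate libraries 2 and 3 of dataset B it was 37 for palmitate with RM and 16 for RM against WT under palmitate in dataset B, 1649 for palmitate over both datasets, against 2573, and 5 for the difference between datasets. Leaving out 1 library gave 5 to 127 for palmitate with RM and 6 to 81 with WT in dataset A, and 137 to 2671 with RM and 923 to 2154 with WT in dataset B. It gave 201 to 759 for RM against WT under palmitate and 200 to 308 in mock of dataset A, and 112 to 2500 under palmitate and 736 to 1826 in mock of dataset B. The interaction in dataset B ranged from 0 to 903 and the difference between datasets from 72 to 770.

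Log2 fold changes that changed sign were all of values that had not passed. With total counts they were, for RM against WT under palmitate, 0.22 (Nfatc1), 0.35 (Rcan1) and 0.26 (Rcan2) in dataset A, and -0.34 (Nfatc2), -0.24 (Nfatc3) and -0.057 (Rcan2) in dataset B. For Rcan1 it was 0.16 in mock of dataset A, and 0.19 and -0.053 for the interactions in datasets A and B, and for Rcan2 it was -0.23 for the interaction in dataset B. For palmitate it was -0.28 (Nfatc3) and -0.22 (Nfatc4) with RM in dataset B, and -0.089 (Nfatc3) and -0.023 (Nfatc4) over both datasets. Without RM palmitate libraries 2 and 3 of dataset B it was 0.11 (Nfatc1), -0.037 (Nfatc3) and 0.21 (Rcan1) for RM against WT under palmitate, -0.073 (Nfatc3) and 0.41 (Rcan1) for palmitate with RM, and 0.074 (Nfatc1) for the interaction. With the replicate block Rcan1 had 0.077 for RM against WT under palmitate and 0.080 for the interaction in dataset A. With no filter it was -0.005 (Nfatc2, RM against WT under palmitate in dataset B), 0.008 (Rcan1, RM against WT in mock of dataset A) and 0.045 (Rcan2, palmitate with WT in dataset A). DESeq2 gave 0.004 for Rcan1 and 0.006 for Rcan2 in those comparisons, and RLE size factors gave 0.007 for Rcan2.

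Leaving out 1 library gave these ranges where the sign changed. For RM against WT under palmitate in dataset A they were -0.13 to 0.29 (Nfatc2), -0.069 to 0.11 (Nfatc3) and -0.22 to 0.15 (Rcan1). In dataset B they were -0.091 to 0.076 (Nfatc1), -0.081 to 0.073 (Nfatc2), -0.09 to 0.054 (Nfatc4) and -0.72 to 0.084 (Rcan1). In mock they were -0.33 to 0.21 for Rcan1 in dataset A and -0.070 to 0.23 for Nfatc1 in dataset B. For palmitate they were -0.087 to 0.12 (Nfatc3, RM in dataset A), -0.001 to 0.070 (Rcan2, WT in dataset A) and -0.53 to 0.30 (Rcan1, RM in dataset B). For the interaction they were -0.25 to 0.28 for Rcan1 in dataset A, and -0.24 to 0.057 (Nfatc1), -0.25 to 0.55 (Rcan1) and -0.078 to 0.28 (Rcan2) in dataset B.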
